A study of Mus musculus with 48 samples.

Results

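The cell cycle and DNA replication genes are 35 genes of a table of 47729, taken by symbol: 20 that act in mitosis or rise toward it and 15 that act in S phase or at its start. All 35 symbols were found, each on 1 line. They were followed in poly(A) RNA of whole fat tissue from male Cth+/+ mice and Cth-/- mice, in which Cth is lost. Its product, cystathionine gamma-lyase, cleaves cystathionine to give cysteine. Mice of both genotypes ate a control diet (CTRL) or a diet free of cystine (CysF) for 6 days, so no group carried any other allele or agent that the labels name. Brown fat (BAT) and 2 white depots, subcutaneous (SFAT) and visceral (EFAT), were sampled, which gives 12 groups of 4 libraries and 48 libraries in all. The age of the mice, their strain and the cells of the tissue are not stated in the labels, and nothing says that libraries came from separate animals, so the spread behind each p-value is that between libraries and may be technical.

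A cell that divides first copies its DNA in S phase and then separates the copies in mitosis. At the start of S phase the E2F factors switch on cyclin E, the MCM helicase that opens the DNA, and the enzymes that make nucleotides. Later, FOXM1 and the MuvB complex switch on the mitotic genes: cyclins A and B with their kinase CDK1, the Aurora and Polo kinases, the motors of the spindle and the proteins of the kinetochore. Most cells of adult fat do not divide, and the cells that do are mainly progenitors, endothelial cells and immune cells. The S phase genes also have roles outside division, such as DNA repair for PCNA, and many resting cells transcribe them at some level.

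Cth itself was at 0 to 6 reads in each of the 24 Cth-/- libraries and at 8 to 389 reads in each of the 24 Cth+/+ libraries. Library totals ranged from 16.2 to 46.0 M reads. The adipocyte gene Adipoq was high in all depots, and Ucp1, the uncoupling protein of brown fat, was at 1380 to 6070 CPM in BAT (CPM, a share of the library's reads, scaled by TMM within each depot, so that levels are compared only within a depot unless stated). In EFAT, replicate 11 of the Cth+/+ CysF group held 183 CPM of Ucp1, against 0 to 3.82 in the other 15 libraries. Replicates 16 and 20 of the EFAT Cth-/- CysF group held 120 and 446 CPM of the epididymis gene Adam7, which is at or under 5.25 CPM elsewhere. In SFAT, replicate 14 (Cth-/- CTRL) held 21.0 CPM of the B cell gene Cd79a and replicate 20 (Cth-/- CysF) had 31.3% mitochondrial reads, against 7.06 to 14.4% in the other SFAT libraries. For some comparisons the results are given with and without these 5 libraries, and all others are given with them only. A further split was seen in reads of the gene model Gm43512, which separate the libraries of each depot into a set A of 9 and a set B of 7. The sets also differed in mitochondrial reads in BAT, at 21.8 to 27.9% in set A and 28.6 to 45.7% in set B. In SFAT and EFAT the sets overlapped in this share. Values within a set are given beside the pooled ones for some comparisons. In EFAT set B holds replicates 1, 2 and 4 (Cth+/+ CTRL), 15 (Cth-/- CTRL) and 17, 18 and 20 (Cth-/- CysF). No Cth+/+ CysF library is in it, so set cannot be fully told apart from diet and genotype there.

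Promoter sequences are shown for 3 members of each class, those that passed in the most depots and, among ties, had the highest mean CPM, of the members with a promoter in the table. Mcm3 passed in 1 depot and the others in 2 or 3. They are shown because 2 motifs of mitotic promoters and 1 of S phase promoters are known. The motifs are the CHR element (TTTGAA or TTTAAA), the CCAAT box and the E2F site (TTTCCCGC, TTTGGCGC, TTTCGCGC or TTTGCCGC), each searched on both strands. The sequences are the 250 bases before the start site in RefSeq (GRCm38.p6), 5′ to 3′ on the gene's strand, and capitals mark every match to the 3 motifs, which read TTCAAA and ATTGG where the match is on the other strand. E2f1 and Mcm7 rank high but are not shown, since their listed start lies 466 bases or more inside the gene of the GENCODE annotation. Mki67 lies at chr7:135716380-135716629 (minus strand), Top2a at chr11:99024190-99024439 (minus), Kif11 at chr19:37376132-37376381 (plus), Mcm2 at chr6:88898781-88899030 (minus), E2f2 at chr4:136172024-136172273 (plus) and Mcm3 at chr1:20820313-20820562 (minus).
Mki67: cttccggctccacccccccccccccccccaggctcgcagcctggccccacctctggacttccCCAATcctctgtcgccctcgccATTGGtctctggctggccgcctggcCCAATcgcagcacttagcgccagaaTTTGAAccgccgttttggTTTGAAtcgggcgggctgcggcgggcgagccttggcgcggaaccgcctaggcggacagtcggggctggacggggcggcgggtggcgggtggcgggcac
Top2a: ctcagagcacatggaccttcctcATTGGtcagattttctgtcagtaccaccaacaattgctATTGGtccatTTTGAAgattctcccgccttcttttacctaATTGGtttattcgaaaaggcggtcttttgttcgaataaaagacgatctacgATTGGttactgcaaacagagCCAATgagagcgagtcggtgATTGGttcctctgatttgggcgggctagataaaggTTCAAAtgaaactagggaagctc
Kif11: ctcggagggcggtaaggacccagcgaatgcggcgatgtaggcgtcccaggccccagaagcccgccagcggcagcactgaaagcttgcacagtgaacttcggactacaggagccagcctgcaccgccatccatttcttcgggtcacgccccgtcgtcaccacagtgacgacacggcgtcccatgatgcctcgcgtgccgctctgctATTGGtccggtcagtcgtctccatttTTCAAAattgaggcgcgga
Mcm2: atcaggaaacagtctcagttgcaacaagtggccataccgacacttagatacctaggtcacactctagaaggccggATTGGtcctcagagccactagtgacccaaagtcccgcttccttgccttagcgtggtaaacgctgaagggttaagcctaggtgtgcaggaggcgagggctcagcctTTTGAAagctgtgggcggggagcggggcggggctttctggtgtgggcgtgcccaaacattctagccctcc
E2f2: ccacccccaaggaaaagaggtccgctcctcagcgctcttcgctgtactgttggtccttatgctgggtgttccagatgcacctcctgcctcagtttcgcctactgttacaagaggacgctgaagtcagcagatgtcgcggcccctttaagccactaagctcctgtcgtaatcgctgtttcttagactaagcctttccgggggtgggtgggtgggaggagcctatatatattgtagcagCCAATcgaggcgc
Mcm3: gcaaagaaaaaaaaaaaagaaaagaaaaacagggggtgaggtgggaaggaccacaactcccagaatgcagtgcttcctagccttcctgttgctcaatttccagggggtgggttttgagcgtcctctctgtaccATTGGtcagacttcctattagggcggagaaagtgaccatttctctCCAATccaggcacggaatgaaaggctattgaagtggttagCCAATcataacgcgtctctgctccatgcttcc

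Mki67 and Top2a each hold 2 CHR elements and several CCAAT boxes, in Mki67 with the CHR elements starting at bases -116 and -98 from the start site. Kif11 holds 1 CHR element, which starts at base -19, and 1 CCAAT box, which starts at base -45. Mcm2 also holds 1 CHR element and 1 CCAAT box, whereas E2f2 and Mcm3 hold CCAAT boxes and no CHR element, and none of the 6 windows holds one of the E2F spellings. The table had a promoter for 28 of the 35 members, 15 of mitosis and 13 of S phase, the latter with 15 promoters since E2f2 and Mcm7 have 2 each. A CHR element stood in 10 of 15 mitosis promoters (66.7%) and 5 of 15 S phase promoters (33.3%), against 25.2% of all 32851 promoters of the table. The CCAAT box stood in 13 (86.7%) and 11 (73.3%), against 33.8% of all. An E2F spelling stood in 1 mitosis promoter (6.67%) and 4 S phase promoters (26.7%), against 1.86%. These shares count every window, also those whose listed start lies inside the GENCODE gene. Among the S phase matches are E2F spellings of Mcm7 (539 bases inside) and Cdc6 (350) and a CHR element of E2f2 (8388). No mitosis start lies more than 84 bases inside. These are matches of letters in a window and describe the sequences only.

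In wild-type mice on the control diet most members were lower in BAT than in the white depots. These levels, unlike the others given here, come from a fit of all 48 libraries with 1 TMM scaling. Summed over the 20 mitosis genes, the level was 12.0 to 31.0 CPM in BAT, 48.8 to 108 CPM in SFAT and 57.8 to 208 CPM in EFAT, and every BAT library was below every white fat library. The 15 S phase genes summed to 81.1 to 103 CPM in BAT, 108 to 137 CPM in SFAT and 112 to 153 CPM in EFAT, which are also apart but closer. By edgeR's quasi-likelihood test at an adjusted p below 0.05, 18 of 20 mitosis genes and 11 of 15 S phase genes were higher in SFAT than in BAT, where 27.1% of all tested genes were higher. In EFAT against BAT these were 20 and 10, with 33.1% of all genes higher. E2f1, a factor that starts the S phase programme, was at 5.78, 6.42, 5.95 and 4.88 CPM in the SFAT libraries and at 1.24, 1.19, 0.867 and 0.690 CPM in the BAT libraries, a log2 difference of 2.54 ± 0.27 (SE, adjusted p = 1.82e-10). The E2F family member E2f2 and the helicase activator Cdc45 were lower in SFAT than in BAT (25.9% of all genes were), and E2f2 was also lower in EFAT (26.9% of all). E2f2 was at 10.1, 7.47, 10.8 and 6.37 CPM in SFAT and 13.8, 13.9, 21.9 and 13.0 CPM in BAT (-0.85 ± 0.34), and Cdc45 at 3.48, 4.86, 3.78 and 3.24 against 6.38, 5.85, 6.81 and 5.96 CPM (-0.70 ± 0.21).

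How far the depots differ depends on the scaling, since the TMM factors were 0.404 to 0.721 in BAT against 0.835 to 1.38 in SFAT and 1.16 to 1.60 in EFAT. With library totals alone the median log2 difference of all genes moved from 0.04 to 1.05 for SFAT minus BAT and from 0.09 to 1.13 for EFAT minus BAT, and 67.3% and 70.5% of all genes were then higher, against 5.65% and 6.63% lower. Under that scaling 20 mitosis genes were higher in each white depot, with 13 S phase genes in SFAT and 14 in EFAT and none lower. The E2f2 and Cdc45 differences between SFAT and BAT then turned to 0.16 (adjusted p = 0.725) and 0.31 (adjusted p = 0.224), and E2f2 in EFAT minus BAT was at -0.39 (adjusted p = 0.347). Between EFAT and SFAT no member passed under either scaling (15.2% of all genes did with TMM). At an unadjusted p under 0.05, 5 mitosis and 2 S phase genes were higher in EFAT, and DESeq2 also called 0. No share of all genes is given for counts at an unadjusted p or by DESeq2, here or below.

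Per length of exon, levels can be compared between genes of 1 depot. In Cth+/+ mice on the control diet Pcna, the sliding clamp of DNA polymerase, had the highest mean of all members in each depot, at 6.77 CPM per kb in BAT, 16.8 in SFAT and 18.0 in EFAT. Mki67, whose protein coats mitotic chromosomes and is the usual marker of dividing cells, was the highest mitosis gene at 0.315, 2.57 and 5.44 CPM per kb. The kinetochore gene Cenpf was lowest in BAT (0.0237 CPM per kb) and the checkpoint kinase gene Bub1 was lowest in SFAT (0.255). In BAT 4 mitosis genes (Ccnb2, Bub1, Aurkb and Plk1) did not pass the low-count filter and were not tested, while all 35 were tested in SFAT and EFAT.

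The diet comparison in Cth-/- mice asks what withdrawing dietary cystine does when the mouse cannot make cysteine by this enzyme. Some mitosis and some S phase genes fell in each depot, and the median of the mitosis genes was the lower one in each, a difference given without a test. By edgeR 6 of the 16 tested mitosis genes and 3 of 15 S phase genes fell in BAT, with median log2 fold changes of -1.22 and -0.33 against -0.01 over all tested genes, of which 10.2% fell. In SFAT 15 of 20 mitosis genes and 5 of 15 S phase genes fell (medians -1.62 and -0.43; 0.03 over all genes, 13.6% of which fell), and 1 S phase gene, Mcm7, rose (11.8% of all genes rose). In EFAT 4 of 20 and 3 of 15 fell (medians -1.20 and -0.46; 0.07 over all genes, 14.3% of which fell), so that the share of S phase genes and of mitosis genes that passed there was near that of all genes. Fewer dividing cells and less RNA of these genes per cell cannot be told apart in whole tissue. By edgeR only Mki67 and E2f1 fell in all 3 depots. Without the doubted libraries Mki67 was not called in EFAT. A further 7 mitosis genes (Aurkb, Ccna2, Cenpf, Foxm1, Kif11, Kif20a and Top2a) and 2 S phase genes (E2f2 and Mcm2) fell in 2 depots, while 4 mitosis and 8 S phase genes fell in none by edgeR. Of those 12, DESeq2 called Ccnb1 lower in EFAT (adjusted p = 0.0448) and Mcm6 lower in SFAT (adjusted p = 0.0489). Besides Mki67 and E2f1, DESeq2 called Top2a, Ccna2, Aurkb, Cenpf and Mcm2 lower in all 3 depots.

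**Figure D1:**
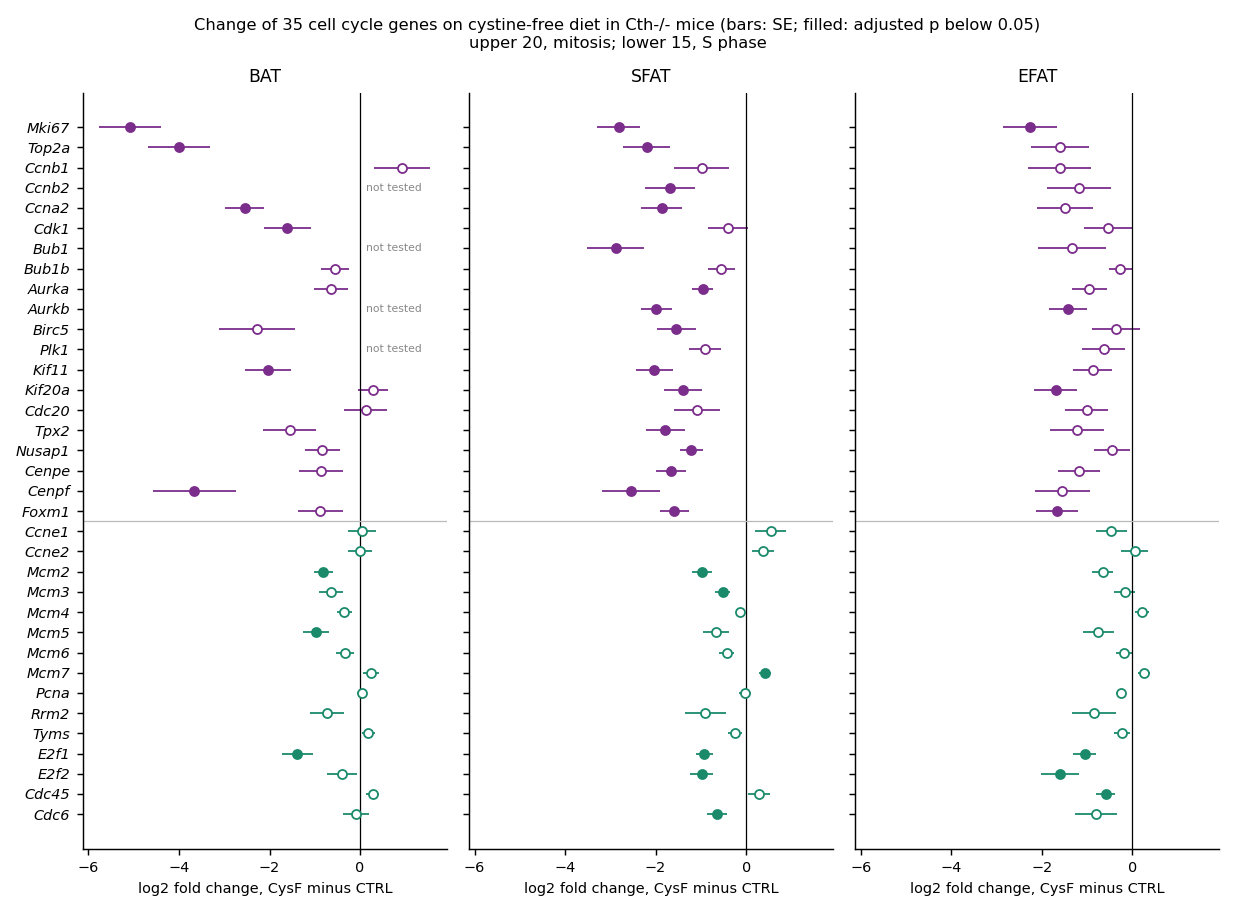
Log2 fold change (CysF minus CTRL) of each of the 35 members in Cth-/- mice, 1 panel per depot, with SE bars; mitosis genes are purple and S phase genes green, filled where the adjusted p is below 0.05. Mki67 is at -5.07 in BAT, -2.82 in SFAT and -2.26 in EFAT, while Pcna stays within 0.26 of 0 in each depot.

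Mki67 fell the most in BAT. Its level was 2.41, 1.60, 4.39 and 1.57 CPM in the BAT Cth-/- CTRL libraries and 0.0392, 0.0306, 0.102 and 0.15 CPM in the CysF libraries. The groups lie far apart: 48 to 118 reads per library against 1 to 3. The log2 fold change was -5.07 ± 0.68 (adjusted p = 0.000198). In SFAT, Mki67 went from 23.1, 25.0, 12.0 and 12.6 CPM to 6.00, 1.12, 1.06 and 2.31 CPM (-2.82 ± 0.48, adjusted p = 0.000799). The highest SFAT CysF library, replicate 16, was still below the lowest CTRL library. In EFAT it went from 40.2, 17.0, 17.4 and 21.8 CPM to 1.54, 9.35, 4.15 and 5.24 CPM (-2.26 ± 0.60, adjusted p = 0.0131), again without overlap.

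Top2a, the topoisomerase that untangles DNA before chromosomes separate, followed Mki67 in BAT and SFAT. BAT held 1.01, 0.689, 2.27 and 1.05 CPM on CTRL and 0.0980, 0, 0.169 and 0 CPM on CysF (-4.00 ± 0.68, adjusted p = 0.0012). The SFAT libraries held 10.8, 13.0, 5.55 and 7.39 CPM on CTRL and 5.00, 0.707, 1.12 and 1.15 CPM on CysF (-2.20 ± 0.51, adjusted p = 0.00576). EFAT was mixed: 20.1, 7.83, 8.70 and 9.02 CPM on CTRL against 1.41, 9.64, 1.81 and 2.25 CPM on CysF, where replicate 17 overlaps the controls (-1.61 ± 0.64, adjusted p = 0.0714).

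Cyclins A and B bind CDK1, the kinase that drives entry into mitosis. By edgeR 2 of the 3 genes tested fell in BAT, where Ccnb2 was not tested. Of the 4 genes, 2 fell in SFAT and none in EFAT by edgeR. In EFAT DESeq2 called Ccnb1 (-1.67, adjusted p = 0.0448) and Ccna2 (-1.54, adjusted p = 0.0341). Cyclin A2 (Ccna2) went from 0.479 to 0.707 CPM in BAT to 0.0613 to 0.135 CPM (-2.55 ± 0.44, adjusted p = 0.00132), with no overlap. In EFAT Ccna2 was at 8.67, 3.29, 3.73 and 3.76 CPM on CTRL and 0.738, 3.94, 1.24 and 1.08 CPM on CysF, and replicate 17 was again the high one (-1.49 ± 0.62, adjusted p = 0.0853). Cdk1 was at 0.251, 0.276, 0.335 and 0.228 CPM in BAT on CTRL and at 0.0196, 0.153, 0.135 and 0.05 CPM on CysF (-1.61 ± 0.52, adjusted p = 0.042). In SFAT, Cdk1 stood apart from Mki67 and Top2a: 2.23, 2.91, 1.07 and 1.35 CPM on CTRL overlapped 1.73, 1.19, 1.87 and 0.814 CPM on CysF (-0.41 ± 0.44, adjusted p = 0.536). EFAT Cdk1 likewise overlapped, with 4.26, 1.83, 1.61 and 2.01 CPM against 1.68, 2.51, 1.53 and 0.982 CPM (-0.53 ± 0.54, adjusted p = 0.478). The fall of Cdk1 in BAT rests on few reads and was lost in 11 of 14 alternative analyses, among them DESeq2 and leaving out 7 of the 8 libraries in turn (every one but Cth-/- CysF replicate 17), with adjusted p from 0.037 to 0.29.

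The spindle checkpoint holds a cell until its chromosomes are attached, and the checkpoint genes moved unevenly. Bub1, its kinase, fell the most of all members in SFAT, from 0.977, 1.15, 0.439 and 0.395 CPM to 0.216, 0.0372, 0.0311 and 0.136 CPM (-2.88 ± 0.63, adjusted p = 0.0041). In BAT the 4 CTRL libraries held 10 Bub1 reads in all and the CysF libraries 0. This is at least 3.31-fold lower with a floor of 3 reads over the group. DESeq2 called Bub1 lower in BAT (-3.74, adjusted p = 0.0274), where the edgeR filter left it out. Bub1 did not pass in EFAT (-1.34 ± 0.74, adjusted p = 0.188). Its partner Bub1b passed in no depot. It was at 1.26, 0.606, 1.01 and 1.35 CPM in BAT on CTRL and 0.647, 0.551, 0.846 and 0.850 CPM on CysF (-0.55 ± 0.30, adjusted p = 0.225). In SFAT Bub1b was at 3.08, 2.97, 2.60 and 2.34 CPM and then 2.68, 1.38, 2.18 and 1.22 CPM (-0.55 ± 0.29, adjusted p = 0.192). EFAT Bub1b was at 5.54, 4.37, 3.73 and 4.57 CPM and then 3.52, 3.84, 3.72 and 4.07 CPM (-0.27 ± 0.25, adjusted p = 0.436). The ranges overlap in each depot. Cdc20, which activates the anaphase-promoting complex, passed in no depot.

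Among the Aurora and Polo kinases and their partners, 4 of 5 fell in SFAT, 1 of 5 in EFAT and none of the 3 tested in BAT by edgeR. DESeq2 called Birc5 lower in BAT (-2.34, adjusted p = 0.0444), and Aurkb, which the edgeR filter left out there (adjusted p = 0.00104). Aurkb, the kinase of the chromosomal passenger complex, went from 1.70, 1.94, 1.32 and 1.52 CPM to 0.647, 0.409, 0.280 and 0.271 CPM in SFAT (-1.99 ± 0.34, adjusted p = 0.000829), with no overlap. In EFAT it went from 2.94, 1.12, 1.81 and 1.32 CPM to 0.772, 1.08, 0.381 and 0.421 CPM (-1.43 ± 0.42, adjusted p = 0.0216). The BAT libraries held 26 Aurkb reads over the CTRL group and 0 over the CysF group, at least 8.59-fold lower. Aurka, Birc5 (survivin) and Tpx2, the activator of Aurora A, fell in SFAT with log2 fold changes of -0.96, -1.55 and -1.79. The Polo kinase gene Plk1 did not pass there (-0.92 ± 0.35, adjusted p = 0.0673).

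Every one of the 5 genes of spindle motors and kinetochore fell in SFAT (-2.55 to -1.21). By edgeR 2 of the 5 fell in BAT and 1 in EFAT, where DESeq2 also called Cenpe and Cenpf lower. Cenpf went from 0.402, 0.303, 0.409 and 0.228 CPM in BAT to 0.0392, 0, 0.0338 and 0 CPM (-3.66 ± 0.92, adjusted p = 0.013). Kif11, the motor that pushes spindle poles apart, fell by the same amount in BAT and SFAT, -2.03 in each (SE 0.50 and 0.42). Kif20a, a motor of cytokinesis, differed between depots. In EFAT it went from 4.98, 2.81, 3.00 and 2.98 CPM to 0.705, 1.48, 0.668 and 1.40 CPM (-1.70 ± 0.48, adjusted p = 0.018). In BAT it was at 1.01, 0.524, 0.670 and 0.662 CPM and then 0.667, 0.643, 1.02 and 1.15 CPM (0.28 ± 0.33, adjusted p = 0.591). Kif20a shares 1271 exon bases with Cdc23 on the other strand, and whether the counting used strand is not given in the sources used here, so reads of the pair may be mixed. Foxm1, the transcription factor of the mitotic programme, fell in SFAT (-1.59 ± 0.33) and in EFAT (-1.66 ± 0.47, adjusted p = 0.0171) and was at -0.88 ± 0.50 in BAT (adjusted p = 0.242).

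Of the genes that act before or at the start of S phase, E2f1 fell in 3 depots and E2f2 in 2, and neither cyclin E passed. E2f1 went from 0.553, 0.496, 0.968 and 0.890 CPM to 0.392, 0.276, 0.237 and 0.15 CPM in BAT (-1.39 ± 0.34, adjusted p = 0.011). In SFAT the values were 6.56, 8.40, 4.05 and 6.37 CPM and then 3.67, 3.24, 3.58 and 2.78 CPM (-0.93 ± 0.19, adjusted p = 0.00238). EFAT gave 9.30, 7.15, 6.70 and 6.70 CPM and then 4.19, 3.64, 2.81 and 3.70 CPM (-1.05 ± 0.25, adjusted p = 0.00651). The groups do not overlap in any depot. E2f2 fell in SFAT, from 3.43, 3.64, 3.61 and 3.70 CPM to 2.55, 2.12, 1.37 and 1.15 CPM (-0.99 ± 0.25, adjusted p = 0.0103). In EFAT it went from 5.32, 3.12, 4.15 and 2.51 CPM to 1.81, 1.97, 0.620 and 0.561 CPM (-1.60 ± 0.42, adjusted p = 0.0123). In BAT E2f2 overlapped, at 3.67, 3.86, 3.35 and 3.40 CPM and then 4.55, 3.13, 1.05 and 1.85 CPM (-0.40 ± 0.33, adjusted p = 0.43). Cyclin E1 and E2 (Ccne1, Ccne2) lay between -0.46 and 0.54 in the 3 depots and passed in none.

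The MCM2 to MCM7 proteins form 1 ring with 1 copy of each, yet their genes did not move together. Mcm2 went from 6.71, 6.87, 5.52 and 4.65 CPM to 3.67, 3.20, 2.83 and 2.24 CPM in SFAT (-0.98 ± 0.22, adjusted p = 0.00495), with every CysF library below every CTRL library. Mcm7 went from 16.8, 15.1, 17.8 and 15.9 CPM to 25.4, 21.8, 23.1 and 17.1 CPM in SFAT (0.41 ± 0.14, adjusted p = 0.0436), with replicate 20 inside the CTRL range. The rise of Mcm7 was lost in 10 of 16 alternatives, among them no low-count filter, the library set as a term and leaving out each library but replicate 20. Within set B, where replicate 20 is the 1 CysF library, its value was -0.04.

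Mcm4 did not pass in SFAT, where it was at 16.1, 16.5, 16.2 and 14.9 CPM and then 15.7, 13.7, 15.5 and 13.4 CPM (-0.13 ± 0.10, adjusted p = 0.371). Mcm5 passed in BAT alone. It was at 1.56, 0.937, 2.20 and 1.69 CPM there on CTRL and at 1.14, 0.735, 0.643 and 0.650 CPM on CysF (-0.97 ± 0.29, adjusted p = 0.0291), a call lost in 9 of 15 alternatives, 6 of them a library left out. In SFAT Mcm5 was at 6.81, 4.96, 5.33 and 3.72 CPM and then 4.70, 3.16, 2.71 and 2.44 CPM (-0.67 ± 0.29, adjusted p = 0.10). EFAT Mcm5 was at 11.5, 5.59, 8.08 and 6.55 CPM and then 4.70, 7.38, 3.19 and 3.56 CPM (-0.75 ± 0.35, adjusted p = 0.117). Mcm7 in BAT was at 5.18, 6.06, 8.60 and 5.61 CPM and then 7.70, 7.72, 7.38 and 7.15 CPM (0.24 ± 0.17, adjusted p = 0.376), and in EFAT at 24.4, 24.2, 26.9 and 24.2 CPM and then 34.8, 30.1, 31.8 and 23.3 CPM (0.27 ± 0.13, adjusted p = 0.141). All 3 depots thus gave Mcm2 a negative and Mcm7 a positive value, with 1 call for Mcm7. Mcm7 shares exon bases with Ap4m1 (321) and Cops6 (64) on the other strand and holds Mir93 and Mir25.

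The polymerase clamp and the nucleotide enzymes did not pass in any depot. Pcna was at 17.4, 18.2, 21.2 and 20.3 CPM in BAT on CTRL and 19.6, 21.8, 20.5 and 17.2 CPM on CysF (0.04 ± 0.10, adjusted p = 0.824). SFAT Pcna was at 42.7, 40.6, 37.0 and 36.2 CPM and then 39.3, 40.0, 40.5 and 33.3 CPM (-0.03 ± 0.12, adjusted p = 0.892). In EFAT it was at 49.0, 39.9, 47.0 and 36.6 CPM and then 36.8, 38.9, 34.1 and 34.6 CPM (-0.26 ± 0.11, adjusted p = 0.0975). The ranges overlap in each depot, with the smallest SE of the 7 genes given in every library. Rrm2, the small subunit of ribonucleotide reductase, was lower by more but with a wide error. In BAT it was at 0.603, 0.606, 0.596 and 0.342 CPM and then 0.274, 0.429, 0.440 and 0.1 CPM (-0.72 ± 0.37, adjusted p = 0.193). SFAT held 2.50, 2.88, 1.79 and 1.92 CPM and then 2.29, 1.08, 1.06 and 0.339 CPM (-0.90 ± 0.45, adjusted p = 0.159), and EFAT 4.60, 2.37, 2.26 and 2.82 CPM and then 0.772, 3.05, 1.24 and 1.64 CPM (-0.85 ± 0.49, adjusted p = 0.201). Thymidylate synthase (Tyms) lay between -0.24 and 0.18. Of the helicase loader Cdc6 and the activator Cdc45, Cdc6 fell in SFAT (-0.65 ± 0.21, adjusted p = 0.0365) and Cdc45 in EFAT (-0.59 ± 0.21, adjusted p = 0.046), and each call was lost in 10 of 16 alternatives. Pcna has near-identical pseudogene copies, and reads could be split among them.

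**Figure D2:**
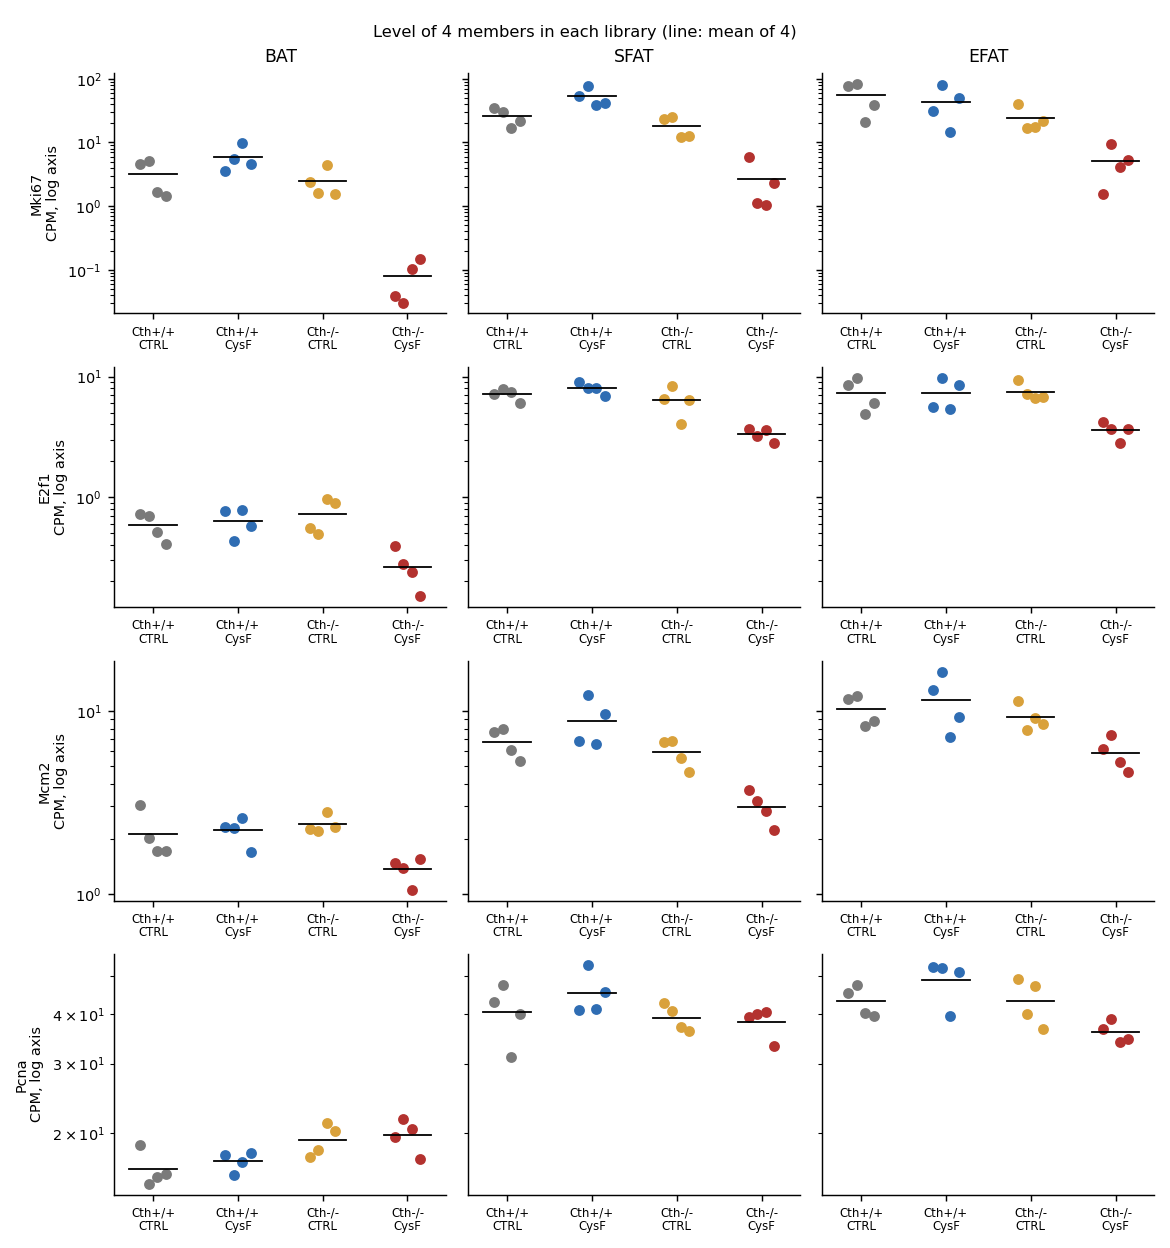
CPM on a log axis of Mki67, E2f1, Mcm2 and Pcna in each of the 48 libraries, by depot and group, scaled within each depot, with a line at the mean of 4. Mki67, E2f1 and Mcm2 have their lowest mean in the Cth-/- CysF group of each depot, while Pcna overlaps between that group and the Cth-/- CTRL group (in SFAT 33.3 to 40.5 against 36.2 to 42.7 CPM).

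Set side by side, the summed mitosis level separated the 2 diets in each depot, while the ranges of the summed S phase level overlapped. Pcna makes up a large part of the S phase sum. In BAT the mitosis sum was 8.02 to 16.7 CPM in Cth-/- CTRL and 3.77 to 4.87 CPM in Cth-/- CysF libraries, against S phase sums of 50.8 to 65.3 and 48.5 to 54.3 CPM. The SFAT mitosis sums were 45.9 to 91.2 and 12.8 to 33.2 CPM, against S phase sums of 125 to 148 and 109 to 139 CPM. For EFAT they were 64.8 to 141 and 21.8 to 59.2 CPM, against 154 to 193 and 130 to 176 CPM. The ratio of the mitosis sum to the S phase sum was 0.157 to 0.256 and then 0.0707 to 0.0990 in BAT, 0.354 to 0.633 and then 0.104 to 0.239 in SFAT, and 0.388 to 0.734 and then 0.145 to 0.337 in EFAT. The 2 groups did not overlap in this ratio in any depot. This also held without Mki67, Top2a and Pcna, 3 of the members with the highest levels, where the ratio was 0.174 to 0.233 and then 0.110 to 0.149 in BAT, 0.293 to 0.514 and then 0.131 to 0.222 in SFAT, and 0.324 to 0.565 and then 0.167 to 0.294 in EFAT. On the log2 scale, the change of the mean mitosis sum minus that of the mean S phase sum was -1.30 in BAT, -1.64 in SFAT and -1.14 in EFAT. With the median over members in place of the sum the differences were -0.94, -1.04 and -0.63. The S phase median itself did separate the diets in BAT, at 2.21 to 2.79 CPM on CTRL and 1.35 to 1.94 CPM on CysF, and it overlapped in SFAT (4.15 to 6.56 and then 3.24 to 4.70 CPM) and EFAT (5.93 to 9.30 and then 3.43 to 6.495 CPM). These sums are described without a test, since the members were chosen with results known.

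**Figure D3:**
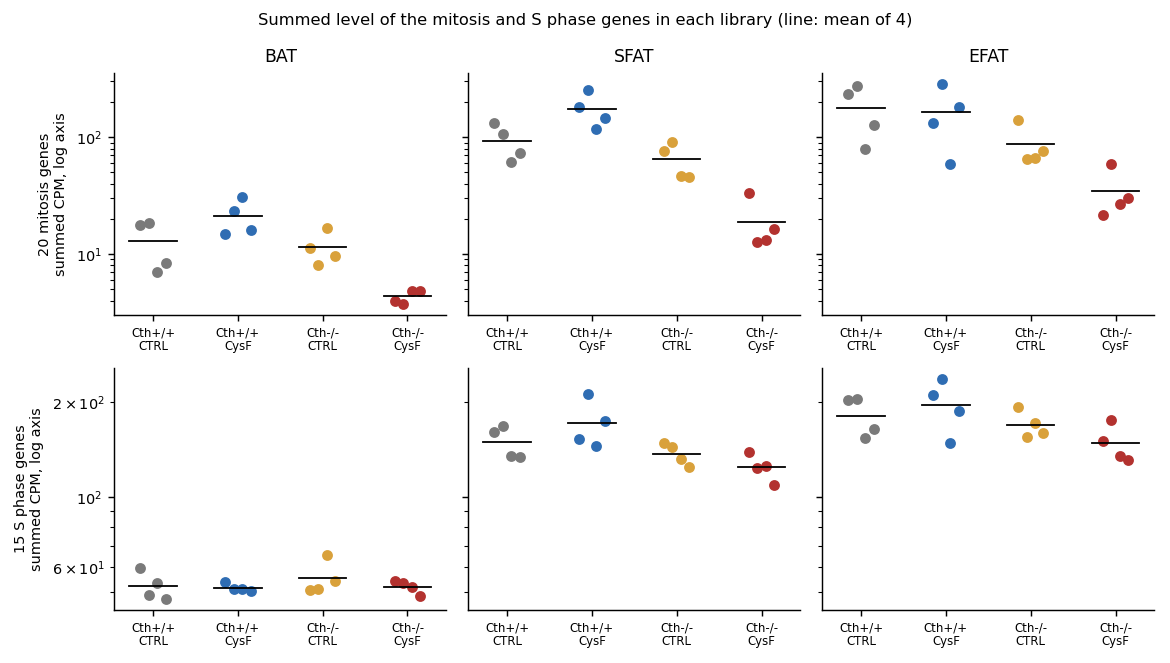
Summed CPM on a log axis of the 20 mitosis genes (upper row) and the 15 S phase genes (lower row) in each library, by depot and group, scaled within each depot, with a line at the mean of 4. In SFAT the Cth-/- CysF libraries hold 12.8 to 33.2 CPM of mitosis genes, below all other SFAT libraries, while their S phase sums of 109 to 139 CPM overlap the Cth-/- CTRL libraries.

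How firm these counts are differed between depots. In BAT the count of 9 members was 6 in the libraries of set A and 0 in those of set B, where only 1 was from CysF. Leaving out 1 library at a time gave 7 to 10. In SFAT the count of 21 was 18 within set A and 9 within set B, whose 1 CysF library is the doubted replicate 20, and it was 19 without replicates 14 and 20, and 15 to 23 with 1 library left out. In EFAT the count of 7 was not stable: 3 without Cth-/- CTRL replicate 12, 13 without Cth-/- CysF replicate 17, and 1 (E2f1) without the doubted replicates 11, 16 and 20. Within set A and within set B of EFAT, each with 1 library in 1 of the 2 groups, it was 0.

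In Cth+/+ mice, which still make cysteine, the same diet changed no member in any depot by edgeR's quasi-likelihood test. The share of all tested genes that passed was 0.0826% for BAT, 0.0664% for SFAT and 0% for EFAT. The mitosis medians were 0.67 in BAT, 0.83 in SFAT and -0.01 in EFAT, so on the opposite side of 0 from Cth-/- mice in BAT and SFAT. The S phase medians were 0.12, 0.17 and 0.07. At an unadjusted p under 0.05, 10 mitosis genes and 5 S phase genes were higher and E2f2 was lower in SFAT. In BAT 2 mitosis genes were higher and E2f2 lower at that threshold, and none passed in EFAT. The share of all genes at that threshold is not given, so these counts cannot be set against it. DESeq2 called 1 member, E2f2 in SFAT, lower. In SFAT, Mki67 was at 35.2, 29.9, 16.8 and 21.5 CPM on CTRL and 54.0, 77.5, 38.2 and 42.4 CPM on CysF, and the groups do not overlap. BAT Mki67 overlapped, at 4.53, 5.08, 1.64 and 1.45 CPM and then 3.56, 5.55, 9.89 and 4.64 CPM. EFAT Cth+/+ libraries were spread widely on both diets, with Mki67 from 20.9 to 82.2 CPM on CTRL and from 14.5 to 80.3 CPM on CysF.

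The test of whether the diet acted differently in the genotypes (the interaction) passed for 6 mitosis genes and 1 S phase gene in BAT, all lower in Cth-/- mice, where 4.32% of all genes were lower. In SFAT it passed for 16 mitosis and 6 S phase genes, all lower, against 12.4% of all genes. Only Aurkb passed in EFAT (-1.96 ± 0.58, adjusted p = 0.0456), against 5.35% of all genes lower, and this call was lost in 15 of 22 alternatives, among them no low-count filter, the library set as a term and leaving out the doubted libraries. DESeq2 called 2 members there, Aurkb and E2f1. The largest interactions in BAT were those of Mki67 (-5.97 ± 0.82), Cenpf (-5.10 ± 1.10), Top2a (-4.96 ± 0.84), Ccna2 (-3.15 ± 0.56), Kif11 (-2.76 ± 0.66) and Cdk1 (-2.36 ± 0.67). In SFAT they were those of Bub1 (-3.98 ± 0.80), Mki67 (-3.85 ± 0.64), Cenpf (-3.55 ± 0.83), Top2a (-3.29 ± 0.69), Kif11 (-2.84 ± 0.56) and Aurkb (-2.82 ± 0.46). The S phase genes among the 22 in SFAT were Mcm2, Mcm3, Mcm5, Mcm6, Rrm2 and E2f1, and in BAT the 1 S phase gene was Mcm5. Pcna, Mcm7, Tyms and both cyclins E were among those that passed in no depot.

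**Figure D4:**
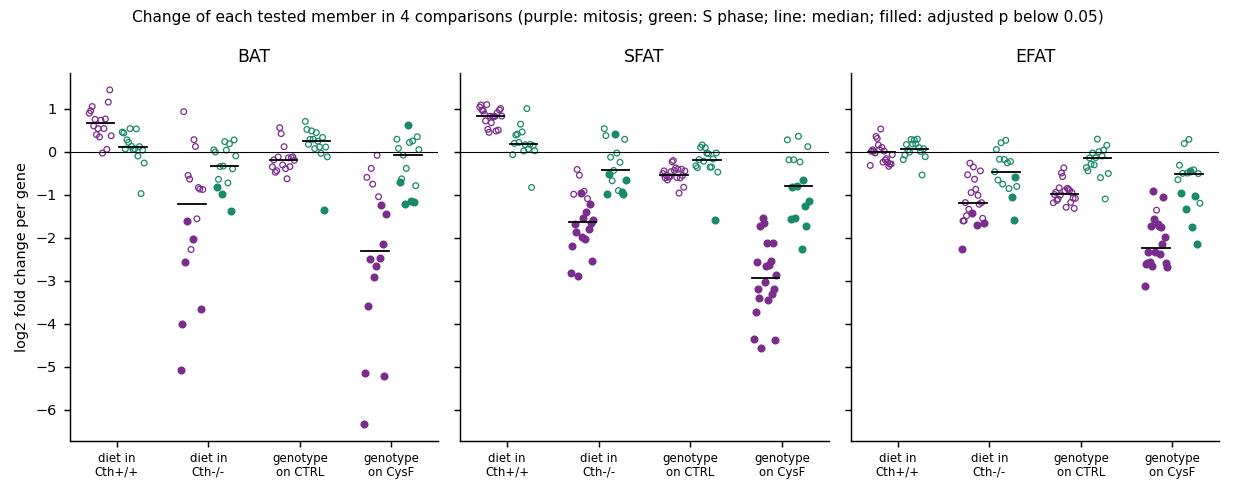
Log2 fold change of each tested member in 4 comparisons per depot, mitosis genes in purple and S phase genes in green, filled where the adjusted p is below 0.05, with a line at the median. The mitosis medians are at 0.67, 0.83 and -0.01 for the diet in Cth+/+ mice and at -1.22, -1.62 and -1.20 for the diet in Cth-/- mice (BAT, SFAT, EFAT).

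On the control diet the genotypes differed in 1 member. E2f2 was lower in Cth-/- mice in BAT, at 3.67, 3.86, 3.35 and 3.40 CPM against 8.02, 8.23, 12.9 and 7.63 CPM in Cth+/+ mice (-1.36 ± 0.32, adjusted p = 0.0386). In SFAT it was at 3.43, 3.64, 3.61 and 3.70 CPM against 12.5, 9.18, 13.5 and 7.86 CPM (-1.58 ± 0.24, adjusted p = 0.012). The groups do not overlap in either depot. The share of all genes that differed was 2.10% for BAT and 0.103% for SFAT. It was 0.0464% for EFAT, where no member passed (5 mitosis genes and E2f2 were lower and Mcm7 higher at an unadjusted p under 0.05, and DESeq2 called 0). The BAT call of E2f2 was lost whichever of the 8 libraries was left out and within each library set. The SFAT call was lost without Cth+/+ CTRL replicate 1, without each of the 4 Cth-/- CTRL libraries and within set B. No mitosis gene passed in any depot by edgeR or DESeq2, and at an unadjusted p under 0.05 none did in BAT and SFAT. At that threshold 4 S phase genes were higher in Cth-/- mice in BAT: Ccne1 (0.70), Mcm4 (0.48), Mcm7 (0.44) and Pcna (0.24). The CysF libraries of Cth+/+ mice also held less E2f2 than their controls, at 2.93 to 5.34 CPM in BAT and 3.92 to 7.39 CPM in SFAT, below every CTRL library of that genotype, although the edgeR test of that difference did not pass.

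On the cystine-free diet the genotypes differed in most members. These comparisons share the Cth-/- CysF libraries with the diet comparison, so they are not separate evidence. In BAT 11 of 16 tested mitosis genes and 4 of 15 S phase genes were lower in Cth-/- mice (17.1% of all genes were), and Mcm7 was higher (0.63; 14.5% of all genes were higher). In SFAT all 20 mitosis genes and 9 S phase genes were lower (19.4% of all genes), and in EFAT 19 and 6 (19.6% of all genes), with Birc5 the mitosis gene that did not pass by edgeR. DESeq2 called all 20 mitosis genes lower there, Birc5 included (-1.42, adjusted p = 0.0262), and 10 S phase genes. The largest changes in BAT were those of Mki67 (-6.32 ± 0.67), Cenpf (-5.22 ± 0.85), Top2a (-5.15 ± 0.67), Ccna2 (-3.59 ± 0.43), Birc5 (-2.92 ± 0.82) and Kif11 (-2.65 ± 0.50). In SFAT they were those of Bub1 (-4.56 ± 0.62), Cenpf (-4.38 ± 0.65), Mki67 (-4.36 ± 0.50), Top2a (-3.73 ± 0.53), Kif11 (-3.44 ± 0.43) and Ccna2 (-3.40 ± 0.46). EFAT was led by Mki67 (-3.13 ± 0.62), Foxm1 (-2.67 ± 0.48), Bub1 (-2.65 ± 0.76), Top2a (-2.61 ± 0.66), Ccnb1 (-2.59 ± 0.71) and Cenpf (-2.58 ± 0.62). Every Cth-/- library was below every Cth+/+ library for 11 of the 16 tested mitosis genes in BAT, where 15.1% of all tested genes were so apart, for 19 of 20 in SFAT (all but Cdk1; 15.2% of all genes) and for 7 of 20 in EFAT (17.0% of all genes). The S phase genes that passed in all 3 depots were Mcm2, Mcm5, Rrm2 and E2f1. In EFAT the count of 25 was 7 without the doubted libraries and 0 within set A, which holds 1 Cth-/- CysF library.

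Whether the diet effect in Cth-/- mice differed between depots was tested in the fit of 48 libraries. Between SFAT and BAT no member differed (2.16% of all genes did). At an unadjusted p under 0.05 Aurkb and Kif20a did, and DESeq2 called 0. Between EFAT and SFAT none differed (4.38% of all genes), with Ccne1 and Cdc45 at an unadjusted p under 0.05 and 1 call by DESeq2, Cdc45 (-0.90). Between EFAT and BAT 3 differed, against 16.2% of all genes: Aurkb (4.83 ± 1.30, adjusted p = 0.0106), Kif20a (-2.04 ± 0.61, adjusted p = 0.0208) and Cdc45 (-0.93 ± 0.29, adjusted p = 0.025). The value for Aurkb rests on 0 reads in the BAT Cth-/- CysF group and depends on the prior count, so it is no measure of size. Kif20a and Cdc45 were at 0.28 and 0.28 in BAT and at -1.70 and -0.59 in EFAT. Without the doubted libraries the count was 1, and Kif20a was also lost without EFAT Cth-/- CTRL replicate 12, Cdc45 without EFAT replicates 14 or 18 or BAT replicate 18. The fall of Mki67 was not shown to differ between depots: SFAT minus BAT was 2.28 ± 1.19 (adjusted p = 0.385), EFAT minus BAT 2.77 ± 1.16 (adjusted p = 0.0952) and EFAT minus SFAT 0.49 ± 0.74 (adjusted p = 0.735). DESeq2 did call the EFAT minus BAT difference of Mki67 (2.80, adjusted p = 0.0146).

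Other genes of both phases, from lists chosen for their roles, had negative medians when Cth-/- mice on CysF and CTRL were compared. The shares of all genes that fell are those given above (10.2%, 13.6% and 14.3% in BAT, SFAT and EFAT), and 7.81%, 11.8% and 14.5% of all genes rose. Of 43 listed mitosis genes found, 24 were tested in BAT, where 7 fell and 0 rose (median -0.90). In SFAT 23 of 43 fell and 1 rose (median -1.42), and in EFAT 9 of 43 fell and 1 rose (median -1.04). Prc1, a spindle midzone protein, changed by -3.54 ± 0.75 in BAT, and Melk, a mitotic kinase, by -3.70 ± 0.63 in SFAT. Of the other replication genes 5 of 33 fell and 1 rose in BAT (median -0.30), 2 of 35 fell and 1 rose in SFAT (-0.21), and 3 of 36 fell in EFAT (-0.19), so that fewer of the listed replication genes fell in SFAT and EFAT than the share of all genes. Clspn, which signals stalled forks, fell in BAT (-2.65 ± 0.71), and Gmnn, which blocks helicase loading, rose there (0.82 ± 0.20). In SFAT Tk1, a thymidine kinase, fell (-1.33 ± 0.47) and Gmnn rose (1.30 ± 0.26), and in EFAT the replication factor Gins2 fell (-1.06 ± 0.19).

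The regulators of G1, which decide whether a cell enters S phase, were led by cyclin D1 (Ccnd1). It was at 10.3, 4.93, 12.5 and 5.32 CPM in BAT of Cth-/- mice on CTRL and 1.96, 1.20, 1.32 and 1.15 CPM on CysF (-2.50 ± 0.36, adjusted p = 0.00031). In SFAT the values were 46.3, 44.9, 31.1 and 29.1 CPM and then 6.43, 6.11, 5.64 and 7.33 CPM (-2.58 ± 0.25, adjusted p = 9.35e-06), with all 4 CysF libraries far below the controls. EFAT Ccnd1 overlapped, at 92.8, 57.7, 45.5 and 68.1 CPM and then 51.5, 31.1, 42.1 and 35.9 CPM (-0.72 ± 0.31, adjusted p = 0.10). In Cth+/+ mice Ccnd1 did not pass (-0.04, 0.34 and -0.28 in BAT, SFAT and EFAT), and the interaction passed in BAT (-2.46 ± 0.47) and SFAT (-2.91 ± 0.33). Of the G1 cyclins and kinases 3 of 9 fell in BAT, 2 of 10 rose and 1 fell in SFAT, and 2 of 10 rose and 1 fell in EFAT. Of all genes 10.2% fell in BAT, 11.8% rose and 13.6% fell in SFAT, and 14.5% rose and 14.3% fell in EFAT. Ccnd2 (-0.76 ± 0.12) and Cdk6 (-0.43 ± 0.11) fell in BAT. The phosphatase gene Cdc25a, which activates CDK2, rose in SFAT (0.98 ± 0.11) and EFAT (0.60 ± 0.12), Cdk2 rose in SFAT (0.48 ± 0.09), and in EFAT Myc rose (1.06 ± 0.33) and Ccnd3 fell (-0.58 ± 0.16).

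Of the inhibitors of the cyclin-dependent kinases, Cdkn1a rose in BAT and SFAT and Cdkn1b rose in EFAT. Cdkn1a (p21) was at 43.1, 22.0, 52.1 and 28.0 CPM in BAT on CTRL and 101, 87.6, 72.8 and 104 CPM on CysF (1.33 ± 0.28, adjusted p = 0.00497). In SFAT it was at 27.2, 26.8, 33.0 and 21.9 CPM and then 62.7, 51.0, 47.8 and 81.4 CPM (1.16 ± 0.27, adjusted p = 0.00542), and neither depot showed overlap. In EFAT it did not pass (0.21 ± 0.39, adjusted p = 0.699). Cth+/+ mice had values of 0.63, 0.82 and 0.68 that did not pass, and the interaction for Cdkn1a did not pass in any depot (0.71, 0.33 and -0.47). On the CysF diet Cdkn1a was not shown to differ between genotypes in BAT and SFAT and was lower in Cth-/- mice in EFAT (-1.69 ± 0.39). Cdkn1b (p27) was at 41.1, 52.7, 46.5 and 61.7 CPM in EFAT on CTRL and 71.4, 110, 81.7 and 102 CPM on CysF (0.86 ± 0.18, adjusted p = 0.00351), with no overlap, and it had an interaction there (0.98 ± 0.25). In BAT and SFAT Cdkn1b did not pass (-0.05 and 0.27). Cdkn1c (p57) rose in SFAT (0.53 ± 0.15, adjusted p = 0.0149) and did not pass in BAT (0.35) and EFAT (0.07). Over the whole list of inhibitors, 1 of 12 rose and 1 fell in BAT, and 2 of 12 rose in SFAT. In EFAT 3 of 12 rose and 3 fell, the latter Cdkn2c (-2.07 ± 0.29), Cdkn2b (-1.80 ± 0.47) and Cdkn2d (-0.74 ± 0.25). Of all genes 7.81%, 11.8% and 14.5% rose and 10.2%, 13.6% and 14.3% fell in BAT, SFAT and EFAT. The counts of rises in BAT and SFAT were near these shares. The Rb family member Rbl1 fell in BAT (-0.96 ± 0.17).

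**Figure D5:**
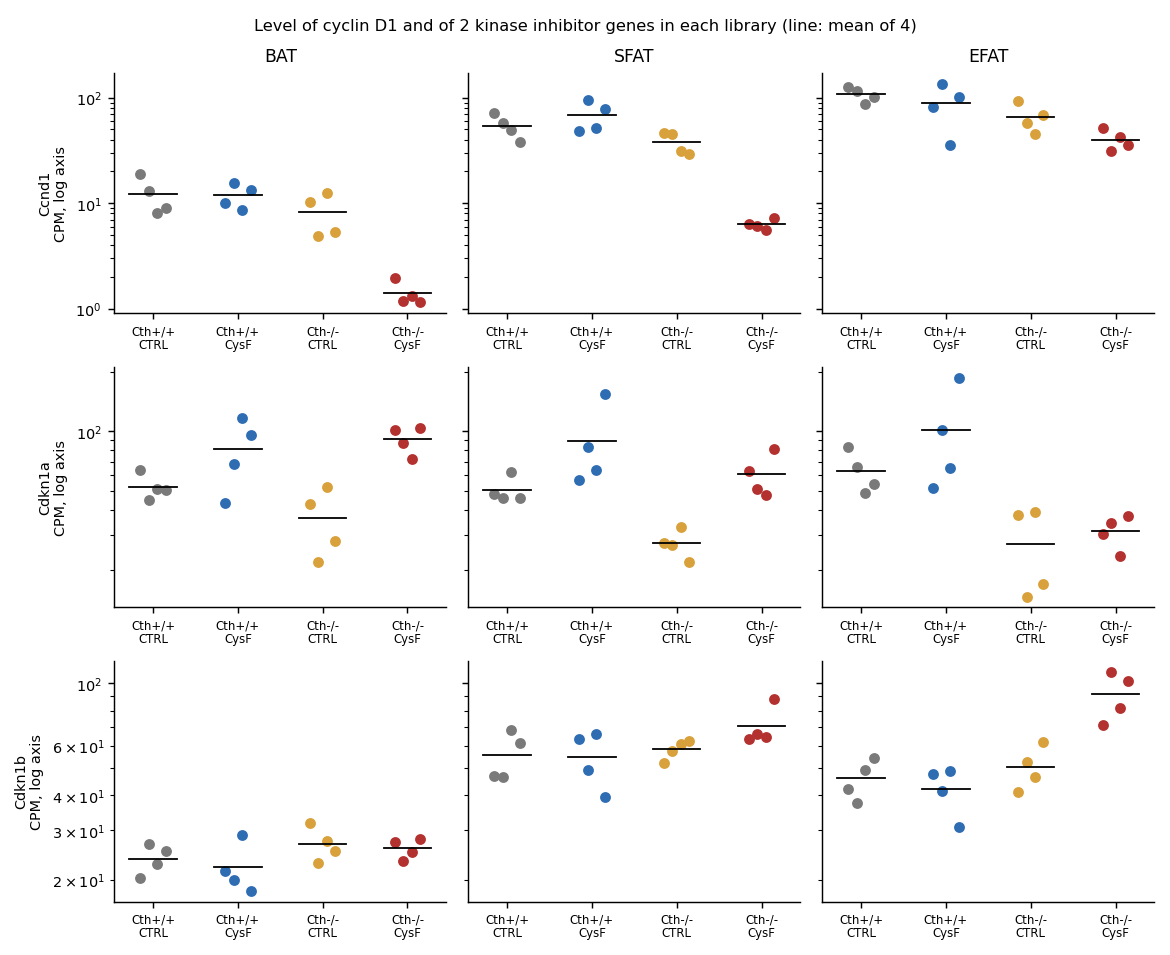
CPM on a log axis of Ccnd1, Cdkn1a and Cdkn1b in each library, by depot and group, scaled within each depot, with a line at the mean of 4. Ccnd1 is at 1.15 to 1.96 CPM in BAT and 5.64 to 7.33 CPM in SFAT of Cth-/- mice on CysF, below all other libraries of those depots, and Cdkn1b is highest in the EFAT Cth-/- CysF group (71.4 to 110 CPM).

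Most progenitor and macrophage markers fell with the mitosis genes between the diets of Cth-/- mice, unlike endothelial markers. The part of any of these cell types in the result was not tested. Progenitor and fibroblast markers fell for 10 of 11 genes in SFAT, 8 of 11 in BAT and 6 of 11 in EFAT (1 rose there). Of all genes 10.2%, 13.6% and 14.3% fell and 7.81%, 11.8% and 14.5% rose in BAT, SFAT and EFAT. Their summed level went from 496 to 608 CPM to 202 to 235 CPM in BAT, from 5920 to 13900 CPM to 1720 to 2230 CPM in SFAT, and from 3680 to 4390 CPM to 2680 to 3060 CPM in EFAT. Pi16, a marker of progenitors, fell in each depot (-2.18, -2.63 and -1.44). Macrophage markers fell for 10, 9 and 9 of 13 genes (1 rose in SFAT and 1 in EFAT), with sums of 89.4 to 131 and then 61.4 to 73.0 CPM in BAT, 1270 to 3690 and then 764 to 1280 CPM in SFAT, and 1290 to 1460 and then 825 to 1080 CPM in EFAT. Adgre1 (F4/80) was at -1.54, -1.78 and -1.14. Endothelial markers, in contrast, rose for 2 of 9 genes in EFAT, and in BAT and SFAT none passed by edgeR, with log2 values of -0.14 to 0.60 and -0.35 to 0.39 and summed levels of 480 to 599 and then 542 to 578 CPM in BAT.

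Some markers of other cell types differed between the diets as well, and all are given beside the same shares of all genes. B cell markers fell for 9 of 9 genes in SFAT, with sums of 159 to 666 and then 41.7 to 107 CPM, where replicate 14 was the highest. In BAT 2 of 3 fell and in EFAT 1 of 9 did, Ighm (-3.95 ± 0.43), where the sum went from 213 to 1010 CPM to 44.4 to 57.5 CPM. T cell markers fell for 3 of 9 in SFAT and 1 of 2 in BAT, and 1 of 6 rose in EFAT. Of the germinal centre markers 1 of 4 fell in BAT and 2 of 5 fell in each white depot. Skeletal muscle markers fell for 7 of 9 in BAT, from 71.9 to 721 CPM to 2.48 to 109 CPM, and passed for none in SFAT and EFAT. All 4 erythroid markers tested fell in BAT, 1 of 4 did in EFAT, and none passed in SFAT (-0.24 to 0.02). Adipocyte markers gave 1 rise and 1 fall of 6 in BAT, 1 rise in SFAT and 1 fall in EFAT, and brown fat markers rose for 1 of 5, 5 of 5 and 1 of 4. Epithelial markers passed for none of 7 in SFAT and none of 6 in EFAT and were not tested in BAT. The 2 epididymis markers tested in EFAT were higher on CysF through replicates 16 and 20, and Adam7 and Crisp1 were at 0 in BAT and SFAT.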

How the data were processed

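RNA of snap-frozen fat was sequenced after poly(A) selection in 48 libraries, 12 groups of 4. The authors deposited 1 table of RSEM expected counts per gene for 47729 genes. The submitters' processing notes name FastQC, STAR, Picard, RSEM and the build mm10, with no versions, and neither the annotation release nor the strand setting is given in the sources used here. Expected counts were rounded to whole numbers. Genes were kept by edgeR's filterByExpr (minimum count 10, minimum total 15), which left 14528 in BAT, 16555 in SFAT, 17248 in EFAT and 18348 in the fit of all libraries.

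Each depot was fitted alone over its 4 groups, with TMM scaling, by edgeR 4.0.16's quasi-likelihood F-test (limma 3.58.1, R 4.3.3). Benjamini-Hochberg adjustment ran over all genes tested, with calls at an adjusted p under 0.05. Depots were compared in 1 fit of 12 groups. The SE is the log2 fold change divided by the square root of F. CPM values were computed on TMM-scaled library sizes from the deposited expected counts. A gene at 0 in a group was given a bound from 3 reads over the group. Motifs were searched in RefSeq promoters (GRCm38.p6), and gene positions come from GENCODE M21 (GRCm38).

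Alternatives were DESeq2 1.42.0, RLE scaling, no low-count filter, only the 2 groups compared, each library left out, the replicate number as a block and the library set as a term. Leaving out doubted libraries, working within a library set and scaling between depots by library totals were chosen after seeing the data. The members and lists were chosen with earlier results of these data known. Genes named from each comparison followed a rule: 7 members always in the diet comparison of Cth-/- mice, then for each class the 2 largest changes that passed and the 2 highest levels that did not, and elsewhere up to 6 members or 3 listed genes that passed. Other members named in a clause were picked with their values in view. The fits were tested on simulated counts with known changes. Those changes were placed only in genes with many reads and with the same spread for all genes, so members with few reads were not covered. No pair of libraries of 1 group agreed within sampling noise (lowest chi-square per degree of freedom 15.9 over 72 pairs). Knl1 and Pimreg of the list of other mitosis genes were not found in the table.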

Additional observations from a re-analysis of the deposited data

Results flagged for a closer look

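In each group of 4 libraries the summed mitosis and S phase levels and 7 members were examined for a library far from the other 3, in 108 groups in all, of which 7 stood out, where chance gives about 1 in 20. In EFAT of Cth-/- mice on CTRL, replicate 12 was high for the mitosis sum (141.4 CPM, the others 64.77 to 76.53), for Top2a (20.14 CPM, the others 7.825 to 9.022) and for Cdk1 (4.259 CPM, the others 1.61 to 2.005). On CysF, Top2a was high in EFAT replicate 17 of Cth-/- mice (9.644 CPM, the others 1.409 to 2.246) and in SFAT replicate 16 (5.004 CPM, the others 0.7073 to 1.153). Rrm2 was low in BAT replicate 15 of Cth-/- CTRL (0.3423 CPM, the others 0.5955 to 0.6063), and Pcna was low in EFAT replicate 10 of Cth+/+ CysF (39.53 CPM, the others 51.13 to 52.58).

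The diet effect in Cth-/- mice differed between EFAT and BAT for Aurkb (4.83), Kif20a (-2.04) and Cdc45 (-0.93) by the test of that difference in the fit of all libraries. Aurkb was at 0 reads in the BAT Cth-/- CysF group, so that its value depends on the prior count.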

How the results depend on the processing

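Some alternatives called mitosis genes lower on CysF in Cth-/- mice in each depot. Among them were DESeq2, RLE scaling, no low-count filter and a fit of only the 2 groups. In EFAT no mitosis gene was called without the doubted libraries, where E2f1 was the 1 member left. The number of members called moved most in EFAT and within library sets that held few libraries of a group. In BAT the 9 members called on the diet in Cth-/- mice became 0 within set B. The BAT genotype count on CTRL of 1 became 0 within set A and 0 within set B, the 16 on CysF became 3 within set B, and the 7 of the interaction became 11 with DESeq2 and 0 within set B. In SFAT the 21 members of the diet comparison in Cth-/- mice became 9 within set B, the 0 in Cth+/+ mice became 1 with DESeq2, the 1 between genotypes on CTRL became 0 within set B, and the 22 of the interaction became 9 within set A. In EFAT the 7 members of the diet comparison in Cth-/- mice became 13 with DESeq2, 4 with the library set as a term, 1 without the doubted libraries, 0 within set A and 0 within set B. The 25 between genotypes on CysF became 7 without the doubted libraries and 0 within set A. The 1 of the EFAT interaction became 2 with DESeq2 and 0 with no low-count filter, with the set as a term, without the doubted libraries and within set A. Sets A and B hold fewer libraries, as does the fit without the doubted libraries. For the other changes the cause was not tested. The 3 members whose diet effect differed between EFAT and BAT became 6 with DESeq2 and 1 without the doubted libraries, and the 0 between EFAT and SFAT became 1 with DESeq2. The contrast of the mitosis and S phase sums, at -1.30 in BAT, -1.64 in SFAT and -1.14 in EFAT, became -0.94, -1.04 and -0.63 with medians over members.

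With 1 library left out, the EFAT diet count in Cth-/- mice ran from 3 to 13, the EFAT interaction from 0 to 3 (3 without Cth+/+ CysF replicate 10), the BAT genotype count on CTRL was 0 each time, and the SFAT genotype count on CTRL ran from 0 to 1. The counts of members with a depot difference in the diet effect ran from 0 to 1 for SFAT minus BAT (1 without BAT Cth-/- CTRL replicate 13), from 2 to 5 for EFAT minus BAT (5 without replicate 15 of BAT or replicates 15 or 16 of EFAT) and from 0 to 1 for EFAT minus SFAT. The level count of EFAT minus SFAT ran from 0 to 1 (1 without SFAT Cth+/+ CTRL replicate 1).

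Replicate numbers recur across depots, but the labels do not tie them to 1 mouse. Deviations of same-numbered libraries correlated above 0.1 for 11 of 16 numbers (SFAT and BAT), 7 of 16 (EFAT and BAT) and 12 of 16 (EFAT and SFAT), with minima of -0.17, -0.10 and -0.088, and the library matched its own number best for 6, 5 and 5 of 16. With the replicate number as a block the depot difference in the diet effect was called for 5 members between EFAT and BAT and 1 between EFAT and SFAT, and the level for 2 members between EFAT and SFAT. The groups of 1 depot share no numbers, so no block was possible there.

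Signs turned for members that did not pass, with the exception of Mcm7 in SFAT and of E2f2 and Cdc45 between depots. Within set A, Aurka in BAT was at 0.01, Ccne1 in BAT at -0.0646, Pcna in SFAT at 0.053 and Ccne2 in EFAT at -0.51. Within set B, BAT Ccne2 was at 0.17, Pcna at -0.16 and Tyms at -0.0049, SFAT Mcm7 at -0.036 and Cdc45 at -0.17, and EFAT Mcm3 at 0.068 and Mcm4 at -0.0489. Ccne2 in BAT was at 0.0066 with RLE scaling, 0.0040 with no low-count filter, 0.0033 with DESeq2 and 0.051 with the set as a term, and in EFAT at -0.066 with no low-count filter, -0.00188 with DESeq2 and -0.31 with the set as a term. SFAT Pcna was at 0.0052 without the doubted libraries. With library totals only, SFAT minus BAT was 0.16 for E2f2 and 0.31 for Cdc45. With 1 library left out, BAT values ran from -0.14 to 0.43 for Cdc20, -0.17 to 0.20 for Ccne1, -0.091 to 0.10 for Ccne2, -0.011 to 0.098 for Pcna and -0.33 to 0.061 for Cdc6, SFAT Pcna from -0.069 to 0.034, and EFAT Birc5 from -0.74 to 0.0056 and Ccne2 from -0.22 to 0.19. Low counts limit BAT, where 4 mitosis genes were not tested.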

Other observations

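Other E2F family members, E2F dimer partners, subunits of the MuvB complex, Mybl2 and Fzr1 were counted in the diet comparison of Cth-/- mice. There 7.81%, 11.8% and 14.5% of all genes rose and 10.2%, 13.6% and 14.3% fell in BAT, SFAT and EFAT. Of the 14 genes listed, 13 were tested in BAT, where 1 rose, and 14 in SFAT, where 3 rose and 1 fell, and 14 in EFAT, where 2 fell. Lin52, a MuvB subunit, rose in BAT (0.47 ± 0.13, edgeR adjusted p = 0.024) and SFAT (0.53 ± 0.10, adjusted p = 0.00193). The E2F dimer partner Tfdp2 rose in SFAT (0.45 ± 0.10, adjusted p = 0.005). E2f8, a repressor of the E2F family, fell in SFAT (-1.98 ± 0.50, adjusted p = 0.00976). In EFAT Fzr1, an activator of the anaphase-promoting complex in G1, fell (-0.56 ± 0.14, adjusted p = 0.00923), and E2f6 fell (-0.40 ± 0.13, adjusted p = 0.0279).

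Listed p53 target genes are given beside the same shares of all genes. In BAT 1 of 14 rose and 3 fell, in SFAT 2 of 15 rose and 1 fell, and in EFAT 4 of 15 rose and 5 fell. Trp53inp1 rose in SFAT (0.86 ± 0.15) and EFAT (1.56 ± 0.21), and Plk3 rose in SFAT (1.28 ± 0.26). Sesn2, a stress-responsive gene, rose in BAT (1.04 ± 0.27). Eda2r fell in BAT (-1.54 ± 0.35), Pmaip1 in SFAT (-1.51 ± 0.40), and Phlda3 (-2.11 ± 0.34) and Gadd45a (-1.60 ± 0.28) in EFAT.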
